A study of Mus musculus with 12 samples.

Results

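The interferon-stimulated genes described here are 44 mouse genes taken by symbol from a fixed list of genes that interferons are known to switch on, or that carry the interferon response. The list was chosen with earlier results of these data known. Of the 44, 43 were listed above the lesion and 42 below it, against 13647 genes listed above and 12338 below in all. DHX58 was listed at neither site and IRF9 only above the lesion, so 42 members had values at both sites. Interferons bind receptors that activate the kinases JAK1 and TYK2, and these phosphorylate transcription factors, STAT2 among them. Together with IRF9, STAT2 takes part in binding the interferon-stimulated response element (ISRE), whereas the response to interferon gamma runs through the gamma-activated site (GAS). The induced proteins sense foreign RNA, block viral entry and translation, and feed back on the pathway. In the central nervous system, microglia, astrocytes, endothelial cells and infiltrating myeloid cells can all express them.

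The libraries were made from spinal cord of male mice expressing human ApoE4, which had a contusion at thoracic level 9 at 4 months of age and were studied at 14 days post-injury (dpi). The 4 groups of 3 libraries crossed genotype (synj1+/+ or synj1+/-) with site (the segment above or the segment below the lesion), where synj1+/- mice carry a single working copy of the gene for synaptojanin 1, a phosphoinositide phosphatase. All 4 groups were injured, so the values do not compare injured with uninjured cord. The table gives a single combined value per gene and group, so there is no spread between libraries, no standard deviation and no test in what follows, and every difference is a difference between combined values. Levels are FPKM (fragments scaled to transcript length, with upper quartile scaling of the libraries). The log2 differences were taken on FPKM plus 1, the scale of the deposited values. A gene was counted as higher or lower when its log2 difference was at least 0.5, which is a 1.41-fold ratio.

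As a check of the labels, SYNJ1, the gene that differs between the genotypes, was higher, not lower, in the groups labelled synj1+/-, at 2403 FPKM against 1904 above the lesion (log2 difference 0.34) and 2592 against 1846 below it (0.49). The check thus did not bear out the labels, and the reason was not tested. The groups are called by their labels throughout, and the sign of every genotype difference rests on those labels. The tissue held high levels of astrocyte and neuron genes in all 4 groups, with GFAP between 8484 and 12974 FPKM and SNAP25 between 5238 and 6928 FPKM. The median log2 difference of all genes was at most 0.02 from 0 in every comparison.

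The binding elements of the pathway are shown first, for members whose values are described below. The stretches come from the RefSeq gene starts on GRCm38.p6, run 5′ to 3′ in the direction of the gene, and lie wholly before its start. Capitals mark the matches to GAAANNGAAA on either strand, the core of the ISRE, in which neighbouring matches may overlap. IFIT3 (chr19:34583363-34583426, plus strand), IFIT1 (chr19:34640775-34640823, plus strand) and ISG15 (chr4:156200865-156200906, minus strand) are shown because they were among the members with the highest differences above the lesion. RSAD2 (chr12:26456553-26456582, minus strand) and IFITM2 (chr7:140955988-140956017, minus strand) are shown because they stood at opposite ends of the members with a match below the lesion.
IFIT3: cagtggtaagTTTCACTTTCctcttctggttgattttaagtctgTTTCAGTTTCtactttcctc
IFIT1: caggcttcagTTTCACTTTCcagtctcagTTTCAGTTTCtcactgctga
ISG15: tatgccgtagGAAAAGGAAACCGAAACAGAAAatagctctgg
RSAD2: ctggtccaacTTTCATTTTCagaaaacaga
IFITM2: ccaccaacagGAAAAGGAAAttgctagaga

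The same was done for the gamma-activated site, searched as TTCNNNGAA, which reads alike on both strands. IRF8 (chr8:120736177-120736223, plus strand) and ISG20 (chr7:78913341-78913369, plus strand) are shown because both were lower below the lesion in the group labelled synj1+/-. IRF1 (chr11:53769914-53769942, plus strand) is shown because it is a textbook target of interferon gamma. Of the 12 members with a match, 7 had a log2 difference above 0 below the lesion. Capitals mark the matches.
IRF8: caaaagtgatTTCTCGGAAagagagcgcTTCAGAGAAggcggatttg
ISG20: ctggggagggTTCTTGGAAtttttccttt
IRF1: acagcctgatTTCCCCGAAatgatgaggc

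A RefSeq window from 250 bases before to 50 bases after the start was given for 35 of the 44 members. The other 9 are MX1, MX2, USP18, PARP9, PARP14, RTP4, IFI27, IFI204 and DHX58. An ISRE core lay in the windows of 16 of the 35 members (45.7%), against 3.99% of the 27025 genes with a window. A GAS match lay in 12 of the 35 (34.3%), against 9.55% of all genes. Both were found in 5 members, BST2, OAS1A, GBP7, IFITM3 and EIF2AK2, and neither in 12, among them IRF7 and OASL2. A match is a run of letters and not a shown binding site, and a window without a match says nothing about the factor.

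The members were mostly weakly expressed in the injured cord. The median member stood at 17.4 FPKM in the synj1+/+ group above the lesion, against 35.5 FPKM for all genes, and 27 of 43 members lay under the median of all genes. In that group 19 members lay under 10 FPKM and 5 over 100 FPKM. USP18, the protease that removes ISG15 from proteins and damps the interferon receptor, was the lowest in every group, between 2.12 and 2.54 FPKM over the 4 groups. IFI27, a mitochondrial protein, was the highest, at 606 FPKM in synj1+/+ and 566 FPKM in synj1+/- above the lesion, and at 697 and 566 FPKM below it.

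**Figure D1:**
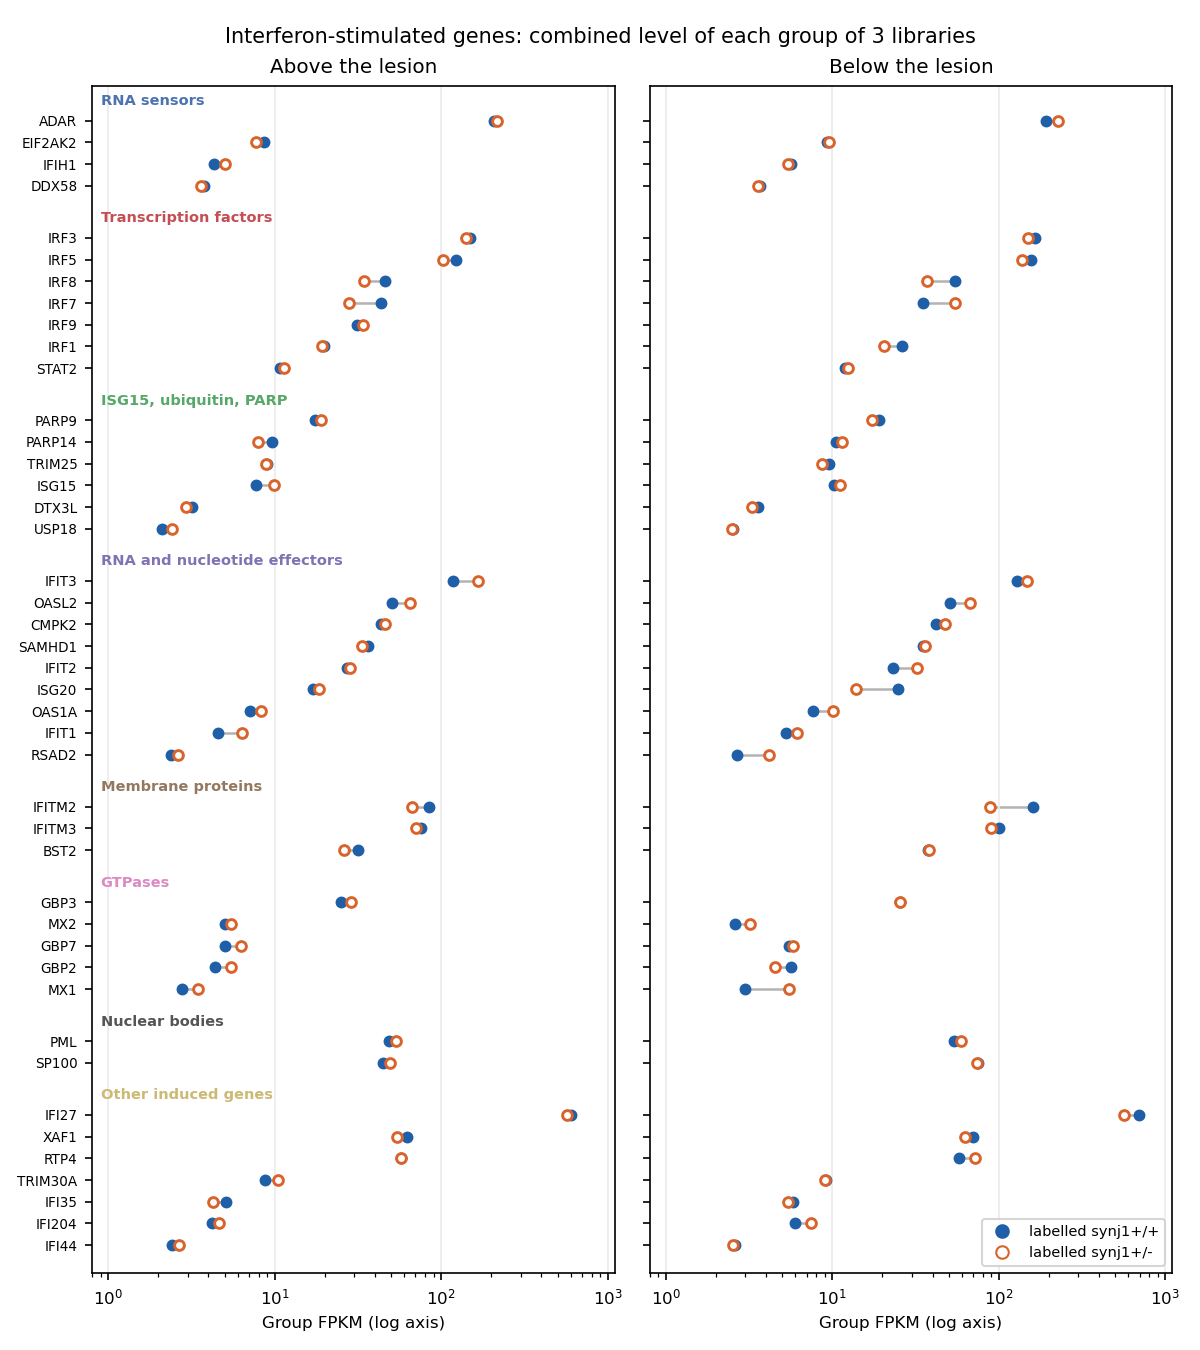
Group level of each listed member in FPKM (horizontal log axis), with genes ordered by role and by their level above the lesion; filled points are the combined value of the group labelled synj1+/+, open points that of synj1+/-, left above and right below the lesion. IFI27 stands highest and USP18 lowest at both sites, and the wide gaps are those of IRF7 above the lesion and of IFITM2, ISG20, IRF7 and MX1 below it.

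The levels are given by role. Among the RNA sensors and kinases, ADAR, which edits double-stranded RNA, had 207 and 217 FPKM above the lesion and 192 and 227 FPKM below it, in synj1+/+ and synj1+/- in that order. The other listed genes of this role, IFIH1 (MDA5), DDX58 (RIG-I) and EIF2AK2 (PKR), stayed between 3.55 and 9.61 FPKM in all groups. Among the transcription factors, IRF3, a constitutive factor that starts interferon production, had 149 and 141 FPKM above and 165 and 151 FPKM below. IRF5 followed at 122 and 102 FPKM above and 155 and 138 FPKM below.

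PARP9, an ADP-ribosyltransferase that works with DTX3L, led the genes of ISG15 conjugation, ubiquitin and ADP-ribose at 17.4 and 18.9 FPKM above and 19.2 and 17.4 FPKM below. ISG15 itself, the ubiquitin-like protein that gives the pathway its name, had 7.75 and 9.87 FPKM above and 10.2 and 11.1 FPKM below. IFIT3, of the family that binds foreign RNA, led the RNA and nucleotide effectors at 118 and 168 FPKM above and 128 and 147 FPKM below. GBP3 led the GTPases at 24.98 and 28.8 FPKM above and 25.6 and 25.3 FPKM below. SP100, a component of nuclear bodies, had 44.7 and 49.3 FPKM above and 74.6 and 73.9 FPKM below. PML, which organizes these bodies, had 48.8 and 53.7 FPKM above and 53.7 and 59.4 FPKM below.

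The first comparison asks how the genotype groups differed above the lesion. No member was higher and 1 was lower, IRF7, against 1.3% of all 13647 genes higher and 2.87% lower. IRF7, the factor that amplifies type I interferon production, had 43.7 FPKM in the synj1+/+ group and 27.8 FPKM in the group labelled synj1+/- (log2 difference -0.63). IFIT3 fell just short of the threshold on the higher side, with 118 FPKM in synj1+/+ and 168 FPKM in synj1+/- (0.498), and passed it on FPKM without the added 1 and after centring on the median of all genes. The median of the members was 0.09, against 0.00 for all genes, and 26 of 43 members lay above 0, against 49% of all genes.

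At the smaller difference of 0.25, 6 members were higher and 6 were lower, against 7.44% and 11.6% of all genes. The 6 higher ones were IFIT3 (0.50), IFIT1 (0.40), OASL2 (0.35), ISG15 (0.31), GBP7 (0.27) and GBP2 (0.26), which are antiviral effectors. Of these, IFIT1 (4.57 and 6.34 FPKM) and ISG15 (7.75 and 9.87 FPKM) lay under 10 FPKM in synj1+/+ and synj1+/-. So did GBP7 (5.03 and 6.26 FPKM) and GBP2 (4.36 and 5.44 FPKM). The 6 lower ones were IRF7, IRF8 (-0.40), IFITM2 (-0.32), BST2 (-0.27), PARP14 (-0.26) and IRF5 (-0.25), of which 3 are transcription factors and 2 are membrane proteins. Among the lower ones, PARP14 lay under 10 FPKM in both groups (9.69 and 7.91 FPKM).

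By role, all 5 GTPases lay above 0, between 0.10 for MX2 and 0.27 for GBP7, against 49% of all genes above 0. Of the RNA and nucleotide effectors, 8 of 9 lay above 0 with a median of 0.11, the exception being SAMHD1 (-0.12), which degrades deoxynucleotides. All 3 membrane proteins lay below 0, with a median of -0.27. Of the 7 transcription factors 5 lay below 0, and IRF9 (0.11) and STAT2 (0.06) lay above it. The RNA sensors, the ISG15 and ubiquitin genes, the nuclear body genes and the other induced genes had medians between 0.00 and 0.14.

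The second comparison is that of the genotype groups below the lesion. In the group labelled synj1+/-, MX1 and IRF7 were higher, and IFITM2, ISG20 and IRF8 were lower, so that 2 of 42 members were higher and 3 lower, against 2.04% and 5.74% of all 12338 genes. The median of the members was 0.01, the same as for all genes at this precision, and 21 members lay above 0 and 21 below, against 52.8% of all genes above.

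MX1, a dynamin-like GTPase that traps viral nucleocapsids, had 3.004 FPKM in synj1+/+ and 5.47 FPKM in synj1+/- below the lesion (0.69). It was among the lowest members in level, and above the lesion it had 2.79 and 3.48 FPKM. IRF7 had 35.0 FPKM in synj1+/+ and 54.7 FPKM in synj1+/- (0.63).

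IFITM2, which hinders the fusion of virus with the cell membrane, had 159 FPKM in synj1+/+ and 88.6 FPKM in synj1+/- (-0.84). Its relative IFITM3 had 101 and 89.6 FPKM (-0.17), and BST2, which tethers budding virus, 37.4 and 38.3 FPKM (0.03). ISG20, an RNA exonuclease, had 24.7 and 13.8 FPKM (-0.80), but 17.1 and 18.4 FPKM above the lesion (0.10). IRF8, a factor that microglia and other myeloid cells need, had 54.4 and 37.2 FPKM (-0.54) below the lesion, and 45.9 and 34.6 FPKM above it.

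At 0.25, 8 members were higher and 6 lower below the lesion, against 13.7% and 15.8% of all genes. Beside MX1 and IRF7, the higher ones were RSAD2 (0.49), IFIT2 (0.46), OASL2 (0.40), OAS1A (0.35), RTP4 (0.31) and IFI204 (0.28). Of these, RSAD2 (2.68 and 4.16 FPKM) and IFI204 (5.96 and 7.42 FPKM) lay under 10 FPKM in both groups, as did MX1. OAS1A had 7.68 and 10.1 FPKM. Beside the 3 lower ones named above, IRF1 (-0.34), IFI27 (-0.30) and GBP2 (-0.26) were lower, GBP2 at 5.62 and 4.52 FPKM. RSAD2 (viperin) makes a chain-terminating nucleotide, and OAS1A makes oligoadenylates in response to double-stranded RNA. Of the RNA and nucleotide effectors, 8 of 9 again lay above 0, with a median of 0.20, and here the exception was ISG20. Of the 5 GTPases only 3 lay above 0 here, with a median of 0.06, against 52.8% of all genes above 0.

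**Figure D2:**
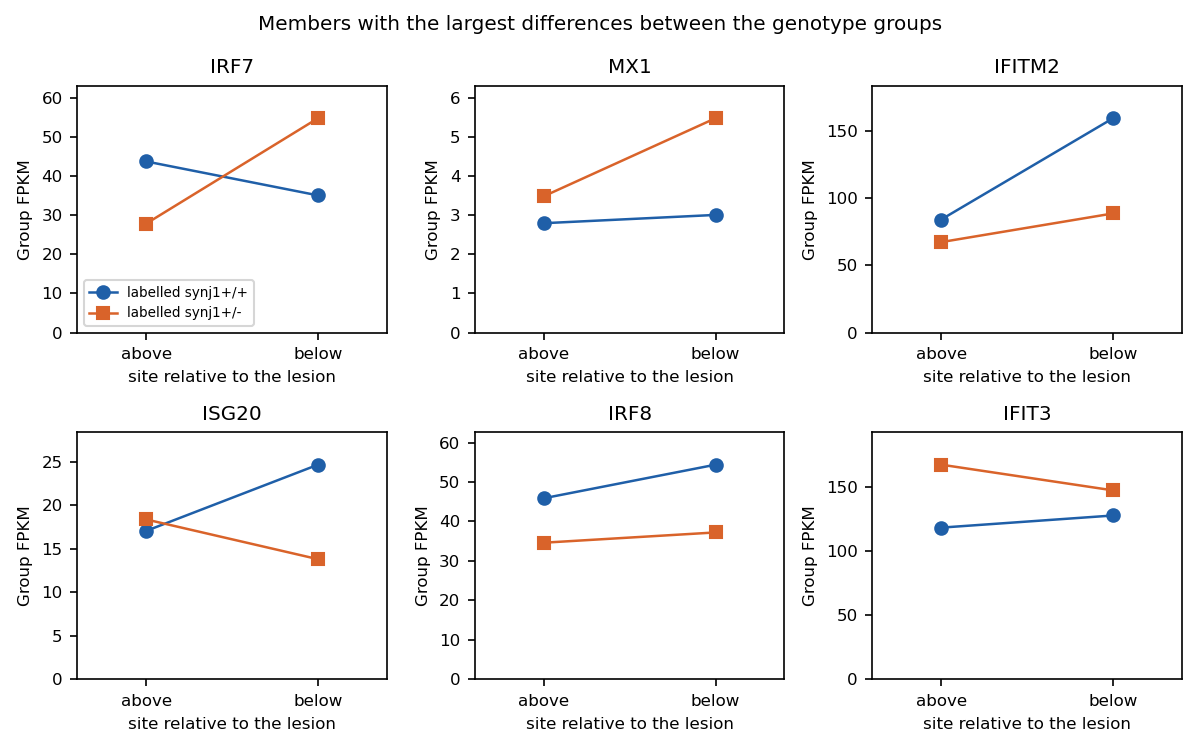
Group FPKM (vertical axes, from 0) above and below the lesion for the 5 members past the threshold at either site and for IFIT3; circles are the group labelled synj1+/+, squares that labelled synj1+/-, each a combined value of 3 libraries, and lines only join the sites of a label. The lines of IRF7 cross, from 43.7 and 27.8 FPKM above to 35.0 and 54.7 FPKM below, and those of ISG20 cross from 17.1 and 18.4 FPKM to 24.7 and 13.8 FPKM, while those of IFITM2, IRF8, MX1 and IFIT3 do not.

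IRF7 was the only member past the threshold at both sites, and its difference had opposite signs. Among 12023 genes with values at both sites, 12 (0.0998%) were lower above and higher below the lesion by at least 0.5 each. A further 13 genes had opposite signs the other way round, none of them a member. IRF7 was among the 12, as was OASL1, an interferon-induced gene outside the 44 whose protein is known to repress translation of IRF7. The levels of OASL1 were 5.90 and 3.51 FPKM above and 6.17 and 9.21 FPKM below. OASL1 is named here after its values were seen. IRF7 lies at chr7:141262706-141266481 on the minus strand of GRCm38 and overlaps PHRF1 on the plus strand, and the library kit does not keep strand, so reads in the shared part cannot be told apart. PHRF1 differed by -0.07 above and 0.13 below, at levels of 255 to 279 FPKM. In all, 21 of the 44 members overlap another gene of the GENCODE annotation. Among them, IFITM2 overlaps GM45717 and IRF8 overlaps GM20388, each a protein-coding model on the strand of the member. Neither model was listed at either site, so how reads were divided there is unknown. MX1 and ISG20 overlap no other gene.

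Of the 42 members listed at both sites, 16 lay above 0 at both and 12 below 0 at both, so 28 (66.7%) kept their sign, against 60.4% of all genes, a share close to theirs. IFIT1, IFIT2, IFIT3, OASL2, OAS1A, RSAD2 and CMPK2, all RNA or nucleotide effectors, lay above 0 at both sites. So did 9 members of other roles, STAT2, ISG15, MX1, MX2, GBP7, RTP4, PML, ADAR and IFI204. IRF1, IRF3, IRF5, IRF8, IFITM2, IFITM3, IFI27, IFI35, XAF1, DDX58, DTX3L and TRIM25 lay below 0 at both. The same animals may have given both segments, so the sites are not independent samples.

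**Figure D3:**
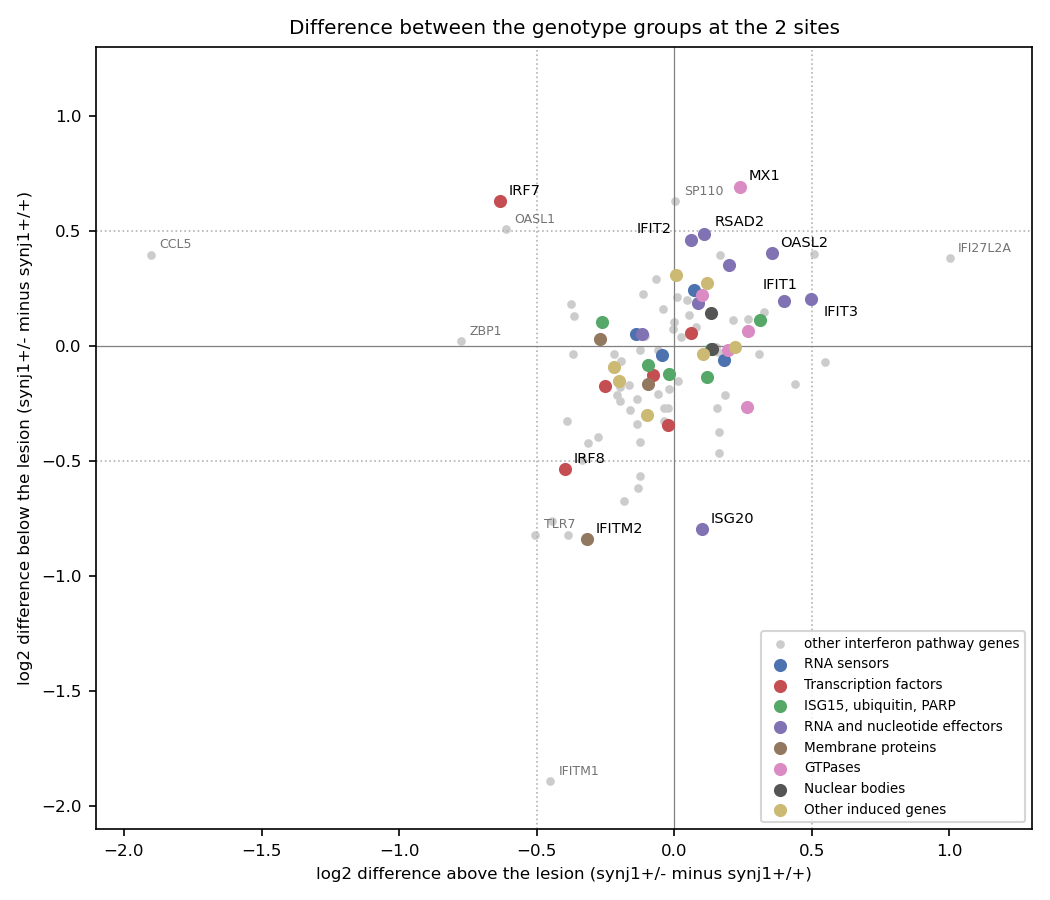
Log2 difference of FPKM plus 1 between the group labelled synj1+/- and that labelled synj1+/+, above the lesion (horizontal) and below it (vertical); colored points are the 42 members listed at both sites by role, grey points other interferon pathway genes, and dotted lines the threshold of 0.5. IRF7 stands alone among the members at the upper left, at -0.63 and 0.63, with OASL1 beside it.

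Split by promoter, the 16 members with an ISRE core had a median difference of 0.19 above the lesion (range -0.32 to 0.50), with 11 of 16 above 0. The 19 without it had a median of -0.02 (range -0.63 to 0.35), with 9 of 19 above 0. Below the lesion the medians were 0.04 (16 members, range -0.84 to 0.49) and -0.06 (18 members, range -0.80 to 0.63), so the ranges overlapped widely at both sites. The 12 members with a GAS match had medians of -0.06 above and 0.04 below, and those without it 0.11 above (23 members) and -0.02 below (22 members).

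The segments below and above the lesion can be set side by side within a label, with the limit that reads were equalized within each site and the sites may have been scaled apart. In the synj1+/+ groups, 35 of 42 members had the higher level below the lesion, against 49.8% of all genes, with a median log2 difference of 0.13 against 0.00 for all genes. Past the threshold, IFITM2 (0.92), SP100 (0.73) and ISG20 (0.51) were higher below and MX2 (-0.74) was lower, so 3 were higher and 1 lower against 4.57% and 2.32% of all genes. MX2 had 5.05 FPKM above and 2.62 FPKM below.

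In the groups labelled synj1+/-, 29 of 42 members had the higher level below, against 55.5% of all genes, with a median of 0.10 against 0.02. Past the threshold, IRF7 (0.95), IFI204 (0.58), SP100 (0.58), MX1 (0.53), BST2 (0.53) and RSAD2 (0.50) were higher below, and MX2 (-0.62) was lower, so 6 were higher and 1 lower against 2.29% and 1.31% of all genes. Several had low levels above and below: IFI204 (4.64 and 7.42 FPKM), MX1 (3.48 and 5.47 FPKM), RSAD2 (2.64 and 4.16 FPKM) and MX2 (5.49 and 3.23 FPKM). With a mean value of at least 10, which leaves these out, 3 members were higher and 0 lower. SP100 and MX2 passed the threshold under both labels. IFITM2 was at 0.39 and ISG20 at -0.39 here.

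The rest of the pathway was read from 103 further genes in 4 groups: ligands, receptors with their kinases and STATs, nucleic acid sensing, and other induced genes. None of the 12 interferon genes on the list was listed at either site. Of the 14 receptors, kinases and STATs listed above the lesion, none was past the threshold. Below the lesion 4 of 12 were lower and none higher, against 5.74% and 2.04% of all genes. These were IFNAR2, a chain of the type I receptor, at 71.3 and 46.1 FPKM (-0.62), IL10RB, a chain shared with the interferon lambda receptor, at 37.3 and 23.0 FPKM (-0.67), and the inhibitors SOCS3 (26.7 and 15.3 FPKM, -0.76) and PTPN6 (16.1 and 8.69 FPKM, -0.82).

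Of the nucleic acid sensing genes, 2 of 16 were lower above the lesion (2.87% of all genes) and 2 of 13 below (5.74% of all genes), and none was higher at either site. TLR7, the endosomal receptor for single-stranded RNA, was lower at both, with 44.5 and 31.0 FPKM above (-0.50) and 55.3 and 30.9 FPKM below (-0.82). AIM2, a cytosolic DNA sensor, had 186 and 125 FPKM below (-0.57). ZBP1, which senses left-handed nucleic acids, was the other gene lower above, at 5.80 and 2.97 FPKM (-0.78), a level too low for the naming rule.

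Of the other induced genes, 3 of 39 were higher and 2 lower above the lesion, against 1.3% and 2.87% of all genes. GBP6 (14.3 and 21.3 FPKM, 0.55) and IFIT3B (22.8 and 32.8 FPKM, 0.51), a near copy of IFIT3, were higher. The rest had levels too low for the naming rule and are named after their values were seen: IFI27L2A was higher (3.03 and 7.07 FPKM, 1.00), and CCL5, a chemokine (5.21 and 0.66 FPKM, -1.90), and OASL1 were lower. Below the lesion 2 of 42 were higher and 1 lower, against 2.04% and 5.74% of all genes. SP110, of the SP100 family, had 28.1 and 44.1 FPKM (0.63), OASL1 is given above, and IFITM1, a relative of IFITM2, had 82.5 and 21.5 FPKM (-1.89). Counting may split reads between near copies, so the values of IFIT3 and IFIT3B, of the IFITM genes, of OAS1A, of IFI204 and of the GBP genes carry that doubt.

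Marker genes of other cell types differed between the same groups. In whole tissue, fewer cells of a type and less RNA per cell cannot be told apart. Of the microglia and macrophage markers, 8 of 19 were lower and none higher above the lesion (median -0.42), against 2.87% and 1.3% of all genes. Their summed level was 4250 FPKM in synj1+/+ and 3104 FPKM in synj1+/-. Below the lesion 11 of 16 were lower and none higher (median -0.64), against 5.74% and 2.04% of all genes. The sums there were 5691 and 3442 FPKM. Their highest genes, LYZ2, CTSS and C1QC, had 1100 and 464, 971 and 632, and 938 and 600 FPKM below the lesion. IRF8, IRF5 and TLR7, which these cells express, lay on the same side. Many members did not, as 26 of 43 lay above 0 above the lesion and 21 of 42 below it.

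Of the fibroblast markers, 3 of 12 were lower above (median -0.27, sums 173 and 150 FPKM), against 2.87% of all genes. Below the lesion 10 of 12 were lower (median -2.31, sums 752 and 189 FPKM), against 5.74% of all genes. Among them BGN, DCN and MGP had 142 and 41.5, 138 and 18.8, and 101 and 10.0 FPKM below the lesion. IFITM1 and IFITM2 were lower at that site too, while IFITM3 (-0.17) and BST2 (0.03) were not past the threshold. Of the 20 infiltrating leukocyte markers only 5 were listed at each site, summing to 45.6 and 42.5 FPKM above and 74.1 and 50.7 FPKM below. Above the lesion 1 of 5 was lower, SIGLEC1 (10.9 and 4.85 FPKM, -1.03), against 2.87% of all genes (median 0.05). Below it 2 of 5 were lower, S100A8 (-1.07) and LY6C2 (-0.88), against 5.74% of all genes (median -0.40). None was higher at either site. The defining T cell and B cell markers CD3E, CD4, CD8A and MS4A1 were not listed. Between the sites in synj1+/+, the microglia and macrophage markers listed at both summed to 3676 FPKM above and 5689 FPKM below, and the fibroblast markers to 173 and 752 FPKM. Astrocyte markers lay below 0 in 10 of 12 cases above (median -0.17, sums 21552 and 18234 FPKM). They did so in 10 of 11 cases below (median -0.17, sums 19530 and 15810 FPKM), with none past the threshold at either site. Of all genes, 49% lay above 0 at the site above the lesion and 52.8% at the site below it. Neuron markers had a median of 0.05 above (sums 11654 and 13007 FPKM) and of 0.23 below (sums 9429 and 11854 FPKM). Below the lesion 13 of 14 neuron markers lay above 0 and 1 was higher past the threshold, against 52.8% and 2.04% of all genes. Endothelial markers had medians of 0.07 above and -0.18 below, and oligodendrocyte markers of -0.05 and 0.06. Between the sites in synj1+/+, all 12 endothelial markers had the higher level below, 4 of them past the threshold (median 0.34, sums 826 and 1008 FPKM). The shares of all genes were 49.8% and 4.57%. The part of these cell types in the values of the members was not tested.

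**Figure D4:**
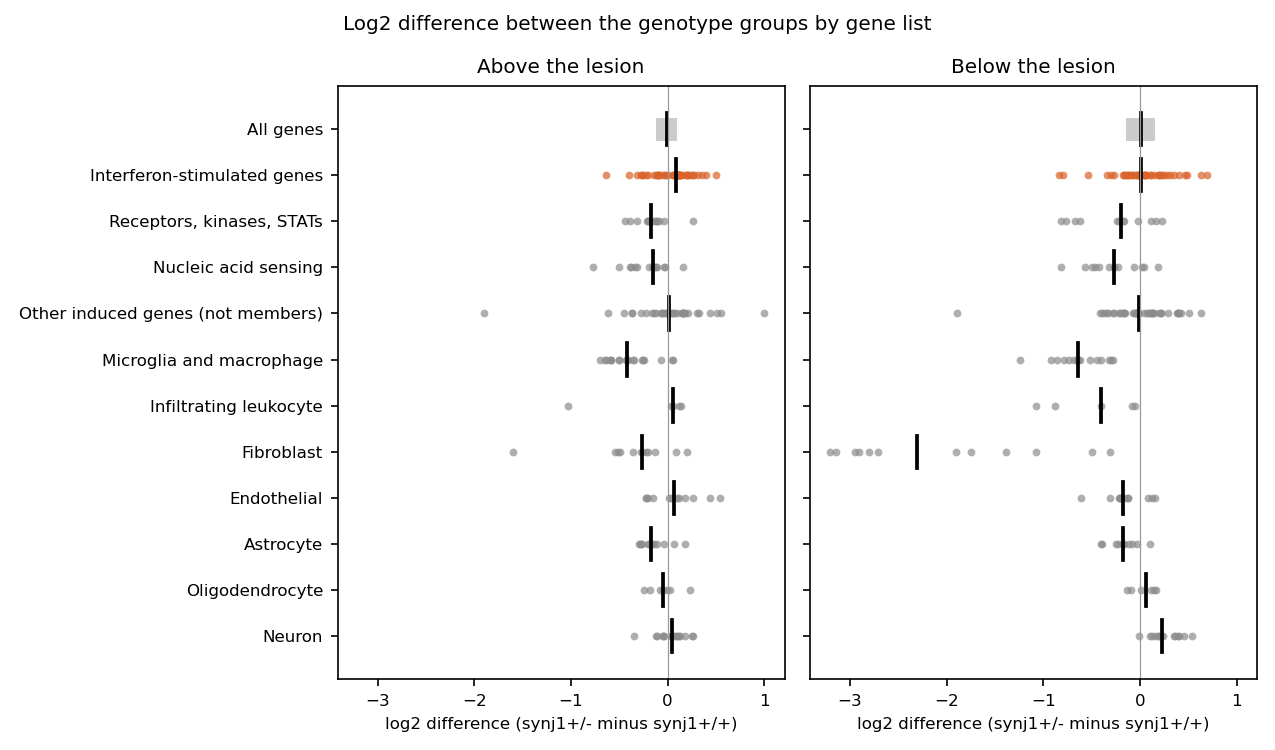
Log2 difference of FPKM plus 1 between the group labelled synj1+/- and that labelled synj1+/+ (horizontal axes) for each listed gene (points) of the interferon-stimulated genes, the other interferon pathway genes and cell type markers, above (left) and below (right) the lesion; black bars are medians and the grey box the middle 50% of all genes. The interferon-stimulated genes lie around 0 at both sites (medians 0.09 and 0.01), while the microglia and macrophage markers (-0.42 and -0.64) and, below the lesion, the fibroblast markers (-2.31) lie to the left.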

How the data were processed

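RNA from spinal cord segments was sequenced as 12 libraries in 4 groups of 3, grouped by the genotype and site in the labels. According to the submitters' processing notes and the paper's methods, libraries were made with a TruSeq RNA kit (v2), the reads of each site were reduced at random to those of its smallest library, aligned with STAR 2.5.4b to GRCm38.p6 and summarized with Cuffdiff 1.3.0 under upper quartile scaling. The gene annotation is not given in the sources used here, nor is the depth of single libraries in the table.

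The deposited table gives the authors' combined value of each group, for 25985 gene and site entries; its lowest value is exactly 1, so it was read as FPKM plus 1. The table has 0 columns of single libraries. It also holds the authors' fold changes, log2 fold changes, p-values and q-values, as does a shorter file; these were not used. ApoE3 libraries were not analysed here. No library spread can be computed, so values were described without a test, and precision is unknown.

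The log2 difference of group values was computed with Python 3.11.15, numpy 2.4.6 and pandas 2.3.3, plotted with matplotlib 3.10.9, and tested on simulated data. Symbols listed more than once at a site (3) were left out of comparisons between sites. Full values are given for members past a log2 difference of 0.5 between the genotypes and for the highest member of each role; further pathway genes were named past 0.5 with a mean value of at least 10, and markers by the 3 highest. The members and lists were chosen with earlier results of these data known. Promoter windows are RefSeq's on GRCm38.p6 and gene positions GENCODE's on GRCm38. The alternatives were FPKM without the added 1, a minimum mean value of 10, centring on the median of all genes, thresholds of 0.25 and 1, and the mean in place of the median. Not every gene of the lists is reported here.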

Additional observations from a re-analysis of the deposited data

Results flagged for a closer look

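IRF7 was singled out because its difference between the genotype groups had opposite signs at the 2 sites: the log2 difference below minus that above the lesion was 1.26. OASL1, an interferon-induced gene outside the 44 members, was singled out for the same reason, at 1.12. The difference between the sites was not tested, because each group has a single combined value.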

How the results depend on the processing

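No paired analysis was possible because the table combines the libraries of a group, and leaving out each replicate could not be run for the same reason. On FPKM without the added 1, 1 member was higher above the lesion between the genotypes in place of 0 (IFIT3), and the medians of the site comparisons were 0.14 in synj1+/+ and 0.11 in synj1+/-. After centring on the median of all genes, 1 member (IFIT3) was again higher above the lesion, and the medians were -0.00079 between the genotypes below the lesion and 0.082 between the sites in synj1+/-. With a mean value of at least 10, which leaves out MX1, 1 member was higher below the lesion between the genotypes; between the sites, 3 were higher in synj1+/-, and 0 were lower in synj1+/+ and 0 in synj1+/-; the medians were 0.059 between the genotypes above and 0.13 between the sites in synj1+/-. The mean in place of the median was 0.031 between the genotypes above, 0.023 below, 0.15 between the sites in synj1+/+ and 0.14 in synj1+/-. At a threshold of 0.25, 6 were higher and 6 lower between the genotypes above, 8 and 6 below, 10 and 2 between the sites in synj1+/+ and 14 and 2 in synj1+/-. At a threshold of 1, 0 were higher and 0 lower in all 4 comparisons. The other 25 of the 56 recomputed counts and medians kept their value within 1.5 times or at 2 decimals. What the spread between libraries would allow is unknown.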
